A study of Mus musculus with 12 samples.

Results

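The question taken up here was whether the RNA changes of tumours given both Complex 1 and radiation were the sum of the changes under each treatment alone. CT26 tumours grow from a murine colon carcinoma line that arose in the BALB/c strain, and Complex 1 is, by the title of the series, a complex of platinum activated by X-rays. All 12 of the 12 libraries of the series entered, as 4 groups of 3: untreated control mice, mice given Complex 1 alone, mice given radiation alone, and mice given Complex 1 with radiation, called the combination. All groups shared the CT26 tumour and received no other agent that the labels name. Doses, times, mouse age and sex, and whether the sampled tumour lay inside the irradiated field were not given in the sources used here. The labels do not say that libraries of a group came from separate animals, so p-values reflect only how these samples spread, which may be technical. Genes were chosen by level alone: 13668 of the 55415 entries of the table had an FPKM (fragments per kilobase of gene, scaled to the depth of the library) of at least 1 in at least 3 libraries.

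Libraries held 15601468 to 19112042 counts. The first principal component, with 33.3% of the variance, placed all radiation and combination libraries above all control libraries and above Complex 1 replicates 1 and 2, and Complex 1 replicate 3 between the radiation libraries. Control replicate 2 had an FPKM of 0.02 for Xist, a noncoding RNA made from the silenced X chromosome in females, against 9.20 to 14.2 in the other 11 libraries. The labels do not give sex, and the part of this difference in the results was not tested. Without that library the Complex 1 calls described next numbered 198 in place of 379 and the radiation calls 3088 in place of 3625, and the number of departing genes stayed at 0. Of 13 epithelial markers, Krt20, an intestinal keratin, was at 66.6 to 148 FPKM in the 12 libraries, whereas Epcam was at 0 to 0.18, Cdh1 at 0.1 to 1.05 and Vil1 at 0 to 0.11. Median FPKM was 0.02 for Cdx2 and 0.14 for both Krt8 and Krt19. Krt18 and Lgals4 stood between, with medians of 4.6 and 3.6. At a high level the tissue label was thus met by Krt20 alone, and Epcam, Cdh1, Vil1, Cdx2, Krt8 and Krt19 did not meet it.

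Ionising radiation breaks DNA, and the p53 protein then switches on genes that arrest the cell cycle, such as Cdkn1a, or promote death, such as Bax. DNA that reaches the cytosol can be sensed and lead to type I interferon, which drives a large set of antiviral genes through the interferon-stimulated response element. Platinum drugs form DNA adducts. Inflammatory signals acting through NF-kB raise chemokines such as Cxcl1 that draw neutrophils, short-lived phagocytes, into a tissue.

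For each gene the departure from additivity was the log2 change of the combination against control less the log2 changes of radiation and of Complex 1 against control. A departure of 0 means that the fold changes multiply, a positive value that the combination lay above the sum and a negative value that it lay below. In quasi-likelihood tests of edgeR, adjusted by Benjamini and Hochberg's method, 0 of 13668 genes departed (0%), and the smallest adjusted p was 0.938. At an unadjusted p under 0.05 there were 600 genes (4.39%), of which 279 lay above the sum (2.04%) and 321 below it (2.35%). DESeq2 on the same genes called 6. By contrast, radiation averaged over both Complex 1 states raised 1823 genes (13.3%) and lowered 1802 (13.2%), and Complex 1 averaged over both radiation states raised 309 (2.26%) and lowered 70 (0.512%). In a balanced design such averaged effects are orthogonal to the departure, so genes chosen by them are not chosen on it.

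What a count of 0 can hide depends on the precision. The median standard error of a departure was 0.16 on the log2 scale, and the median 95% interval reached 0.34 to either side. The whole interval lay within a factor of 1.5 of the sum for 8424 genes (61.6%), and within a factor of 2 for 10948 (80.1%). These shares were 84.9% and 95.3% for the 4556 genes with a mean FPKM of 12.2 or more, and 24.2% and 53.1% for the 4556 genes under 3.91 FPKM. For well expressed genes a departure beyond 2-fold was therefore seldom compatible with the interval, and for genes of low level it often was.

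The size of the pattern can also be put as a variance partition. Per gene, the mean square on the log2 scale was 0.321 for radiation, 0.197 for Complex 1 and 0.0653 for the departure, beside 0.0697 within groups. The departure thus held 11.2% of the variation between groups, and its mean square was 0.937 times that between replicates. Median departure over all genes was -0.01, with quartiles of -0.13 and 0.10. Above the sum lay 47.5% of all genes. Members of a gene list share the same 12 libraries and can move together, so counts of members above or below the sum are descriptions.

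A second view compares effects that share no library. The Complex 1 effect without radiation (Complex 1 against control) and with it (combination against radiation) had Pearson's r = 0.35 and Spearman's rho = 0.33 across the 13668 genes. For the 4556 genes of highest level, r was 0.60. The radiation effect without Complex 1 and with it had r = 0.48 and rho = 0.62, and r = 0.83 for the genes of highest level. Over the same genes, the distance from equal effects is the departure in both comparisons. The higher r for radiation than for Complex 1 thus goes with a wider spread of effects and not with smaller departures. Over all genes the SD was 0.43 for radiation and 0.38 for Complex 1, each without the other treatment. The genes of highest level differed from all genes in both respects. Their effects were narrower (SD 0.32 and 0.21) and their departures smaller, with quartiles of -0.08 and 0.08. These are descriptions across genes, which are not independent replicates, and all points share the same 12 libraries.

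**Figure D1:**
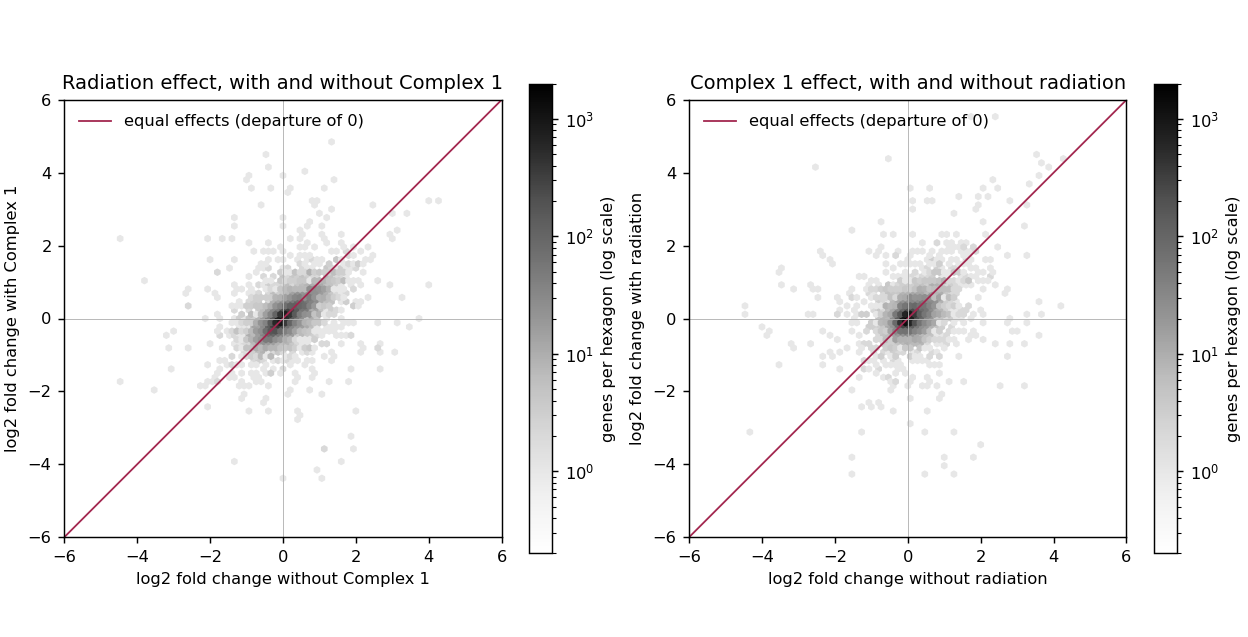
Each hexagon counts genes (log scale) by log2 fold change without the other treatment (x axis) and with it (y axis), for radiation on the left and Complex 1 on the right; the line marks equal effects, a departure of 0. A gene lies equally far from the line in both panels, and radiation effects without the other treatment spread more widely (SD 0.43) than Complex 1 effects (SD 0.38); 1 and 2 genes lie outside the axes of the left and right panel.

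The 6 genes that DESeq2 called, and edgeR did not, are described by their values. They were chosen by their departure in these same libraries, which favours large values. Their sizes, intervals and separation of groups are therefore descriptions and no support. Il1rl1, the receptor of interleukin-33 (chromosome 1, 40468730 to 40504575 in mm39), had FPKM of 27.1, 25.3 and 29.2 in control, 29.0, 29.1 and 28.7 in Complex 1, 31.1, 28.6 and 36.0 in radiation, and 62.7, 50.7 and 51.7 in the combination. All 3 combination libraries lay above the other 9, and neither treatment alone moved the gene past the test. The level expected if the fold changes multiply (radiation mean times Complex 1 mean over control mean) was 33.9 FPKM. The departure was 0.71 ± 0.14 (SE), or 1.63-fold above the product with a 95% interval of 1.32 to 2.01; the adjusted p was 0.938 in edgeR and 0.0104 in DESeq2.

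Jund, a subunit of the AP-1 transcription factor (chromosome 8, 71151599 to 71153265), showed another form of departure, in which both treatments alone lowered the gene and their combination did not. FPKM were 75.2, 87.5 and 75.3 in control, 49.2, 65.3 and 62.7 in Complex 1, 65.9, 62.8 and 67.9 in radiation, and 77.7, 77.7 and 78.0 in the combination. Each single treatment lay below control without overlap (edgeR adjusted p = 0.0435 for Complex 1 and 0.049 for radiation), and the combination lay inside the control range. The product would be 48.8 FPKM, and the departure was 0.68 ± 0.13 (DESeq2 adjusted p = 0.0104).

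Nfil3, a bZIP repressor that also acts in innate lymphocyte development (chromosome 13, 53121245 to 53135109), was also higher in the combination than under either treatment alone. Its FPKM were 12.3, 13.5 and 8.08 in control, 8.14, 9.21 and 7.57 in Complex 1, 5.64, 7.03 and 8.63 in radiation, and 15.4, 10.2 and 12.6 in the combination. The combination lay above both single treatments without overlap and overlapped control, and control replicate 3 lay inside the range of both single treatments. Radiation lowered the gene (edgeR adjusted p = 0.0394), and the Complex 1 change of -0.47 ± 0.20 did not pass (adjusted p = 0.365). The departure was 1.30 ± 0.29, or 2.45-fold above a product of 5.23 FPKM (DESeq2 adjusted p = 0.0187).

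Hspa1b, an inducible Hsp70 chaperone (chromosome 17, 35175412 to 35178214), had FPKM of 10.9, 17.1 and 9.91 in control, 8.38, 7.52 and 5.32 in Complex 1, 6.21, 4.88 and 8.38 in radiation, and 8.71, 8.55 and 12.7 in the combination. Both single treatments lay below control without overlap, though only the radiation change passed (edgeR adjusted p = 0.0211, and 0.146 for Complex 1), and the combination overlapped control. The departure was 1.47 ± 0.35 (DESeq2 adjusted p = 0.0251). Hspa1a, its near-identical neighbour, departed by 1.59 ± 0.44 at 0.41 to 2.36 FPKM in the 12 libraries, and reads of the pair may be split between them, so the values are uncertain.

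H1f2, a linker histone (chromosome 13, 23922791 to 23924350), had FPKM of 16.3, 26.0 and 15.7 in control, 7.78, 10.4 and 9.05 in Complex 1, 12.5, 14.8 and 12.7 in radiation, and 13.8, 12.7 and 16.0 in the combination. Complex 1 alone lowered it (adjusted p = 0.0143 in edgeR), and the combination overlapped radiation. The departure was 1.19 ± 0.25, and 0.92 without control replicate 2, the highest library (DESeq2 adjusted p with all libraries = 0.0156).

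Gatm, which makes the precursor of creatine (chromosome 2, 122424948 to 122441784), was the 1 gene of the 6 below the sum. FPKM were 35.3, 33.3 and 32.4 in control, 40.4, 40.4 and 42.5 in Complex 1, 58.8, 55.7 and 58.5 in radiation, and 49.5, 52.2 and 53.6 in the combination. The 4 groups did not overlap, and the combination lay below radiation alone. The departure was -0.44 ± 0.08, so that the combination reached 0.738 of the product of 70.5 FPKM, with a 95% interval of 0.652 to 0.836 (DESeq2 adjusted p = 0.0125).

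Leaving out any single library kept the sign of all 6 departures, with values of 0.60 to 0.80 for Il1rl1, 0.57 to 0.75 for Jund, 1.13 to 1.49 for Nfil3, 1.19 to 1.70 for Hspa1b, 0.92 to 1.33 for H1f2 and -0.47 to -0.41 for Gatm. These 6 genes were chosen by their departure in the same libraries, so the kept sign is a description and no support. The next genes by unadjusted p did not pass in either tool. Above the sum these were Plekhf1 (0.61 ± 0.13), Itgb7 (0.48 ± 0.10), a T cell homing integrin, Phf13 (0.44 ± 0.10), a reader of histone methylation, Dnajb4 (0.60 ± 0.14), an Hsp70 co-chaperone, and Tob2 (0.48 ± 0.12). Below it were Ncf1 (-0.48 ± 0.11), a subunit of the phagocyte NADPH oxidase, Cd300c2 (-0.87 ± 0.21), a myeloid surface receptor, N6amt1 (-0.51 ± 0.13), Pax6 (-0.51 ± 0.12), Msr1 (-0.48 ± 0.12), a macrophage scavenger receptor, and Mtx3 (-0.36 ± 0.10).

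**Figure D2:**
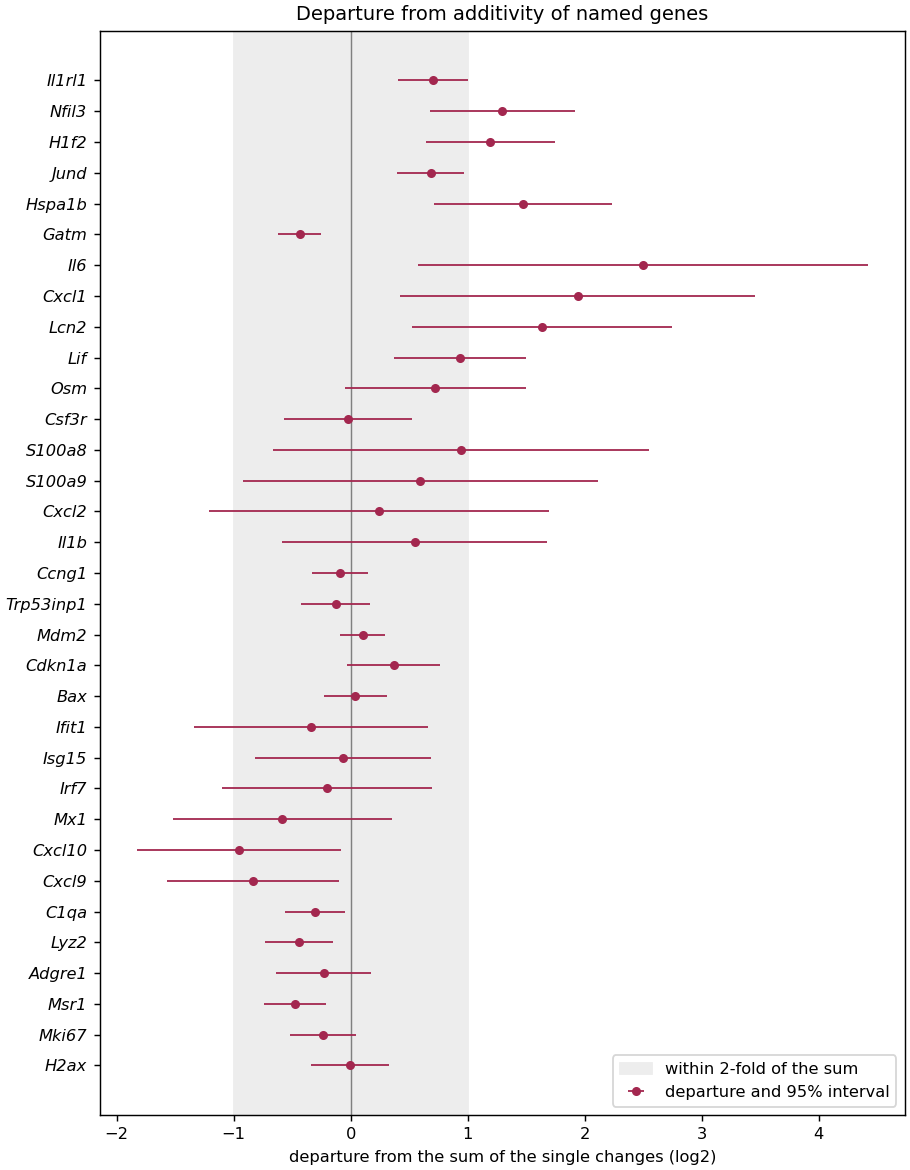
Departure from the sum of the single changes (x axis, log2) with its 95% interval for 33 genes; grey marks a departure within 2-fold. Il1rl1, Nfil3, H1f2, Jund and Hspa1b lie above 0 and Gatm below it, and these genes were chosen by their departure. Targets of p53 such as Ccng1 lie close to 0 with short intervals, and Il6 and S100a8 have the widest. Il6 passed the level filter only through the combination.

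The p53 targets were a radiation response to which Complex 1 added little. Radiation raised 24 of the 34 tested targets (averaged effect; 13.3% of all genes were raised) and lowered 0, and Complex 1 called 0 in either direction. Median log2 change over the list was 0.42 under radiation, -0.03 under Complex 1 and 0.45 in the combination. Trp53inp1, a p53-induced regulator of death and autophagy, had FPKM of 1.52, 1.71 and 1.69 in control, 1.65, 1.78 and 1.92 in Complex 1, 4.84, 5.69 and 5.17 in radiation, and 5.39, 4.84 and 5.31 in the combination. Radiation and combination libraries overlapped each other and lay above the other 6. Ccng1, cyclin G1, had FPKM of 27.4, 30.2 and 30.0 in control, 28.8, 33.7 and 34.6 in Complex 1, 71.7, 78.9 and 67.9 in radiation, and 74.3, 77.4 and 73.7 in the combination, with a departure of -0.09 ± 0.11.

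Cdkn1a, which encodes the cell cycle inhibitor p21, had FPKM of 47.3, 40.2 and 31.3 in control, 36.1, 44.7 and 38.5 in Complex 1, 56.3, 71.7 and 63.9 in radiation, and 85.2, 82.0 and 79.4 in the combination. Combination libraries lay above all radiation libraries, while Complex 1 alone overlapped control. The departure was 0.37 ± 0.18 (unadjusted p = 0.069), and 0.22 without control replicate 1 or 0.51 without control replicate 3. Mdm2, the ligase that degrades p53, departed by 0.10 ± 0.09, Bax by 0.04 ± 0.13, and Eda2r, a death receptor family member, by -0.05 ± 0.16. Over the list the median departure was 0.07, with 22 genes above the sum (47.5% of all genes were) and 12 below. At an unadjusted p under 0.05, 2 were above (2.04% of all genes) and 0 below. These 2 were Plk2 and Plk3, polo-like kinases. The interval stayed within 2-fold for 32 of the 34 targets.

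Neither kinase was raised by radiation alone. Plk2 had FPKM of 39.8, 34.7 and 25.5 in control, 31.0, 29.5 and 25 in Complex 1, 24.5, 23.8 and 29.5 in radiation, and 38.8, 33.4 and 30.5 in the combination. The combination overlapped control and Complex 1 and lay above radiation, with a departure of 0.63 ± 0.21 (unadjusted p = 0.00985). Plk3 had FPKM of 15.8, 14.1 and 16.0 in control, 15.2, 13.8 and 13.1 in Complex 1, 14.1, 16.4 and 13.9 in radiation, and 22.3, 16.7 and 17.8 in the combination. All 3 combination libraries lay above the other 9, and the departure was 0.48 ± 0.16 (unadjusted p = 0.00955).

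Genes of proliferation and DNA repair went down with radiation. Radiation lowered 33 of 34 proliferation genes (13.2% of all genes were lowered), and Complex 1 called 0. The list's median was -0.26 under radiation, 0.05 under Complex 1 and -0.37 in the combination. Below the sum lay 32 of 34 genes, against 7172 of all 13668 genes. Of the 32, 1 had an unadjusted p under 0.05 (2.35% of all genes were below at that level), Tyms, thymidylate synthase (-0.32 ± 0.13). Median departure was -0.15, and -0.04 without Complex 1 replicate 3 and radiation replicate 2 together. Stmn1, stathmin, which destabilises microtubules and is not on that list, had FPKM of 65.8, 72.4 and 71.5 in control, 74.5, 77.0 and 81.4 in Complex 1, 43.6, 55.4 and 49.3 in radiation, and 41.8, 48.7 and 42.4 in the combination. Its departure was -0.30 ± 0.12 (unadjusted p = 0.028), and radiation and combination overlapped. Mki67, the proliferation antigen Ki-67, departed by -0.24 ± 0.13. Radiation also lowered 18 of 37 genes of DNA repair and damage signalling, with a median departure of -0.05, and all 37 intervals stayed within 2-fold.

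Interferon-driven genes are shown with their promoters because they moved together under radiation. Of RefSeq promoters in GRCm38.p6 (the deposited coordinates are mm39), the 250 bases before the start were searched on both strands for GAAANNGAAA, the interferon-stimulated response element, and overlapping matches were kept. It stood in 12 of the 23 type I interferon genes with an entry (52.2%) and in 11 of 17 interferon-gamma genes (64.7%), against 3.47% of 9325 tested genes and 3.46% of all 27025 promoters. A match is a description, not a bound site or a cause. Capitals mark the matches, read 5′ to 3′ on the gene's strand, in a stretch each of Ifit1 (chr19:34640765-34640833, plus strand), Isg15 (chr4:156200855-156200916, minus), Rsad2 (chr12:26456543-26456592, minus) and Cxcl10 (chr5:92349073-92349122, minus).
Ifit1: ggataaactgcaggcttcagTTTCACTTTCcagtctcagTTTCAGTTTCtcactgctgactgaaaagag
Isg15: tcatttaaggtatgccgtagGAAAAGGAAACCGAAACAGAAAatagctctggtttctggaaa
Rsad2: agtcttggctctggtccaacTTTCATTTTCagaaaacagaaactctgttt
Cxcl10: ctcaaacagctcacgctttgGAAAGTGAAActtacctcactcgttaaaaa
In Isg15 3 matches run into each other, and in Ifit1 a pair of matches stands in the opposite reading.

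Radiation raised all 34 tested genes of the type I interferon list (13.3% of all genes were raised), and Complex 1 averaged over radiation called 0 of them. Ifit1, an antiviral RNA-binding protein with both matches above, had FPKM of 11, 18.5 and 16.1 in control, 11.4, 10.9 and 33.0 in Complex 1, 49.4, 59.2 and 48.6 in radiation, and 49.3, 54.0 and 46.5 in the combination. Radiation and combination overlapped, and 1 Complex 1 library, replicate 3, stood between those groups and control. The departure of Ifit1 was -0.34 ± 0.46, but 0.39 without Complex 1 replicate 3. For Isg15, a ubiquitin-like antiviral protein, the 2 values were -0.07 ± 0.35 and 0.41, and for Rsad2, viperin, -0.73 ± 0.60 and 0.34.

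The whole interferon signal behaved like these genes. On the mean log2 level of the 34 genes relative to control, the Complex 1 libraries were at -0.20, -0.15 and 0.97, the radiation libraries at 1.18, 1.22 and 1.30 and the combination libraries at 1.34, 1.37 and 1.27. The list's median departure was -0.21 with all libraries and 0.30 without Complex 1 replicate 3, and 0.22 without that library and radiation replicate 2 together. With all libraries 0 of 34 members had an unadjusted p under 0.05 in either direction. The sign of this departure therefore rested on 1 library.

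The interferon-gamma list showed the same dependence. Radiation raised 22 of 25 genes (13.3% of all genes) and Complex 1 raised 1 (2.26% of all genes). All 25 lay below the sum (7172 of all 13668 genes did), with a median departure of -0.41, or 0.28 without Complex 1 replicate 3. Cxcl10, a chemokine for activated T cells, had FPKM of 6.03, 7.85 and 8.80 in control, 9.65, 11 and 25.3 in Complex 1, 24.5, 34.9 and 33.9 in radiation, and 34.5, 31.5 and 30.8 in the combination. Complex 1 replicate 3 reached the radiation range, and combination overlapped radiation. The departure was -0.96 ± 0.40 (unadjusted p = 0.034), and -0.38 without that library. Cxcl9, the related chemokine, departed by -0.84 ± 0.34, and Cd274, which encodes the checkpoint ligand PD-L1, by -0.62 ± 0.51.

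T cell and cytotoxic genes could not be placed well against the sum. Radiation raised 17 of 22 cytotoxic and NK genes and 7 of 19 T cell markers (13.3% of all genes were raised). Gzmb, granzyme B, had FPKM of 11.6, 16.2 and 25 in control, 14.4, 22.1 and 50.4 in Complex 1, 69.3, 45.7 and 70.8 in radiation, and 82.9, 83.1 and 114 in the combination. Combination libraries were the highest 3, and Complex 1 replicate 3 exceeded radiation replicate 2. The departure of Gzmb was -0.12 ± 0.52, and 0.56 without Complex 1 replicate 3.

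Gzmf, granzyme F, was the 1 of 22 cytotoxic genes at an unadjusted p under 0.05 (0.033). This is near the share of all genes at that level, 4.39%, so nothing is read from it about the list. It had FPKM of 4.69, 16.8 and 63.2 in control, 7.38, 11.3 and 10.2 in Complex 1, 85.9, 12.6 and 47.4 in radiation, and 69.8, 96.2 and 97.9 in the combination. Combination overlapped radiation, and control replicate 3 exceeded 2 radiation libraries. Its departure was 2.41 ± 1.01, and 1.04 without that control library. The log2 change under Complex 1 alone was -1.58 for Gzmf, -1.03 for Gzme and -0.96 for Gzmd, and the last 2 departed by 1.73 ± 0.90 and 1.62 ± 0.91; the Gzmf change did not pass (adjusted p = 0.425). These granzyme genes are close relatives of each other, and counts may be split between them.

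Median departure of the cytotoxic list was 0.10, from -0.24 without radiation replicate 2 to 0.58 without Complex 1 replicate 3, and that of T cell markers -0.06, from -0.36 to 0.48 without the same libraries. On the T cell markers' mean level relative to control, radiation replicate 2 was at -0.58 and the other radiation libraries at 1.08 and 0.91. Bulk RNA cannot tell fewer cells of a type from less RNA per cell.

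Macrophage and monocyte markers stayed near the radiation level when Complex 1 was added. Radiation raised 18 of 26 (13.3% of all genes were raised), with medians of 0.67 under radiation, 0.34 under Complex 1 and 0.74 in the combination. Median departure was -0.31, and 22 of 26 lay below the sum (7172 of all 13668 genes did). Of the 22, 6 had an unadjusted p under 0.05 (2.35% of all genes were below at that level), beside 1 above the sum, Gpnmb. Msr1 had FPKM of 21.1, 18.9 and 19.2 in control, 28.8, 28.3 and 24.5 in Complex 1, 27.4, 29.3 and 28 in radiation, and 31.4, 26.1 and 25.9 in the combination. All 3 treated groups lay above control and overlapped one another, with edgeR adjusted p = 0.00407 for radiation, 0.0368 for Complex 1 and 0.00311 for the combination. The product would be 39.0 FPKM.

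C1qa, a chain of complement C1q made by tissue macrophages, had FPKM of 201, 190 and 185 in control, 248, 236 and 258 in Complex 1, 339, 309 and 388 in radiation, and 359, 380 and 334 in the combination. Its departure was -0.31 ± 0.12. Ncf1 had FPKM of 7.46, 8.27 and 7.88 in control, 10.3, 11.8 and 12.3 in Complex 1, 15, 16.6 and 15.3 in radiation, and 16.7, 15.5 and 16.4 in the combination. Both single treatments raised it, and the combination overlapped radiation alone. Without control replicate 3 the list had 4 members at an unadjusted p under 0.05, and 13 without Complex 1 replicate 1; the median stayed below 0 in every case, at -0.35 to -0.19. Summed FPKM of the 26 markers overlapped between all 4 groups (3740 to 5170, 3990 to 5160, 4780 to 5320 and 4420 to 4890), led by Spp1, osteopontin.

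**Figure D3:**
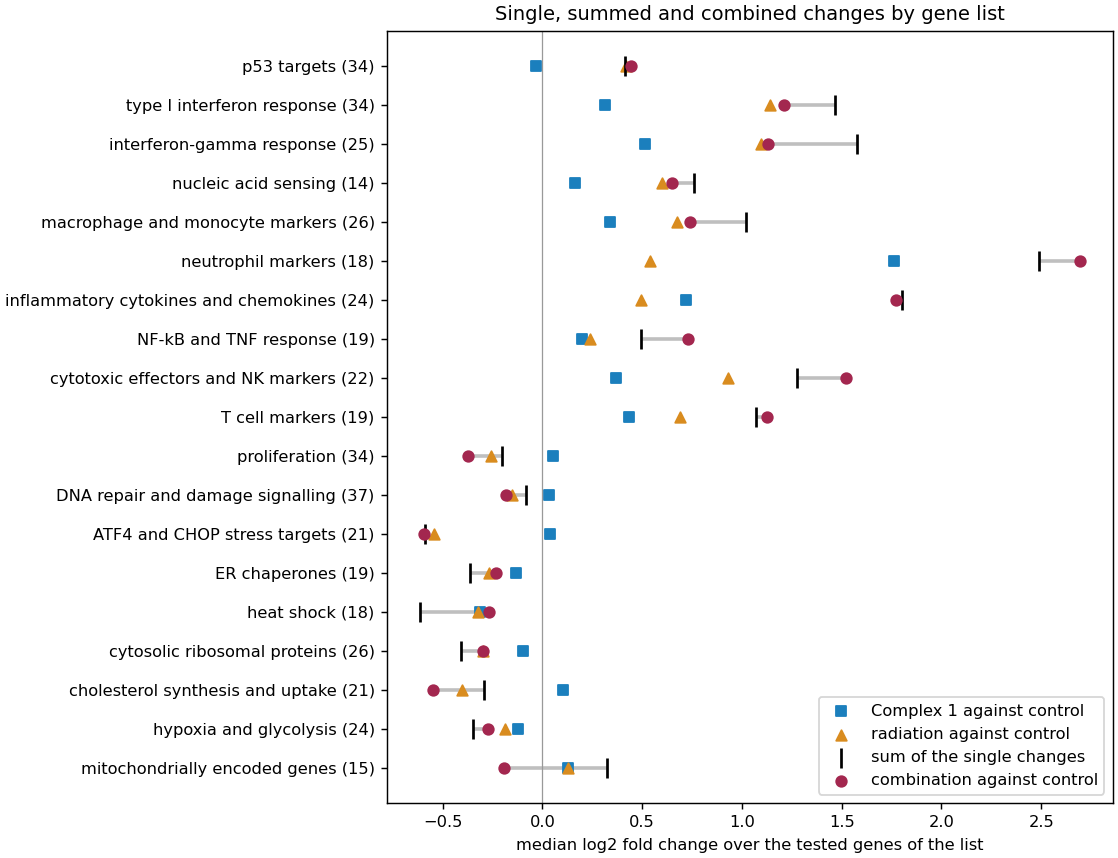
Median log2 fold change over the tested genes of each list (x axis; number of genes in parentheses) for Complex 1, radiation and the combination against control, with a bar at the median of the summed single changes and a grey line from it to the combination. The combination meets the sum for p53 targets (0.45 against 0.42), falls short of it for macrophage markers (0.74 against 1.02), and lies on the other side of 0 for mitochondrially encoded genes (-0.19 against 0.32).

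Neutrophil markers were the clearest Complex 1 response, and the combination lay beyond either treatment. Complex 1 raised 17 of 18 (2.26% of all genes were raised), and radiation raised 7 (13.3% of all genes). Summed FPKM of the 24 listed markers were 64.5 to 111 in control, 228 to 317 in Complex 1, 91.8 to 132 in radiation and 441 to 706 in the combination. S100a9, a calprotectin subunit and the leading marker, had FPKM of 12, 6.11 and 4.65 in control, 85.3, 142 and 62.3 in Complex 1, 11.1, 2.93 and 21.1 in radiation, and 291, 194 and 181 in the combination. The combination lay above all other libraries and 1.51-fold above the product of 149 FPKM, with a wide 95% interval of 0.527 to 4.33.

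Csf3r, the receptor of granulocyte colony-stimulating factor, was close to a pure product. Its FPKM were 3.69, 2.52 and 3.07 in control, 6.81, 7.14 and 8.33 in Complex 1, 7.40, 4.82 and 7.21 in radiation, and 18.3, 13.3 and 14.1 in the combination, where the product is 15.6. Both treatments raised it alone (adjusted p = 0.0111 for Complex 1 and 0.00437 for radiation), and the departure was -0.03 ± 0.25. Mmp9, gelatinase B, fell short of the product. It had FPKM of 1.79, 0.90 and 1.04 in control, 5.42, 5.11 and 5.11 in Complex 1, 2.30, 1.48 and 2.49 in radiation, and 4.55, 3.21 and 3.60 in the combination, all below the Complex 1 libraries, with a departure of -1.20 ± 0.34. Median departure of the list was 0.22, but -0.09 without radiation replicate 2 and 0.62 without radiation replicate 3.

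Among inflammatory cytokines and chemokines, radiation raised 14 of 24 and lowered 1, and Complex 1 raised 13. Over all genes these shares were 13.3%, 13.2% and 2.26%. Promoters of 3 members that hold a match to the motif named next are shown as examples. GGGNNNTTCC, a kappa B site, was searched in the same way and stood in 5 of 18 members with an entry (27.8%), against 6.29% of tested genes and 5.31% of all promoters. The share was of similar size in the other lists searched: 21.7% of type I interferon, 23.5% of interferon-gamma, 33.3% of NF-kB and TNF response and 21.4% of heat shock genes. The stretches are of Il6 (chr5:30013050-30013099, plus strand), Cxcl1 (chr5:90891136-90891204, plus) and Cxcl2 (chr5:90903782-90903850, plus), in RefSeq GRCm38.p6, with matches on either strand in capitals.
Il6: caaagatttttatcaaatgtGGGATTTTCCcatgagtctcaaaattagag
Cxcl1: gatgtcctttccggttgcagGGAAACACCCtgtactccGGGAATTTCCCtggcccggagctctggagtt
Cxcl2: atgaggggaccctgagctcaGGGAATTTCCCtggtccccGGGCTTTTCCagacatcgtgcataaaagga
Cxcl1 and Cxcl2 share an overlapping pair of matches of the same letters.

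Cxcl2, a neutrophil chemokine, responded to Complex 1, with FPKM of 1.42, 1.21 and 0.79 in control, 6.85, 19.0 and 18.6 in Complex 1, 1.40, 0.71 and 2.67 in radiation, and 33.1, 22.1 and 17.1 in the combination. Complex 1 and combination overlapped, and the departure was 0.24 ± 0.67. Cxcl1 differed from it: FPKM were 12.6, 6.11 and 6.29 in control, 26.3, 25.8 and 13.3 in Complex 1, 12.5, 6.42 and 24.4 in radiation, and 246, 81.0 and 104 in the combination. All combination libraries exceeded every other library, and the mean exceeded the product of 37.8 FPKM. Neither single change passed (adjusted p = 0.293 and 0.36), and the departure was 1.94 ± 0.70, or 1.30 without combination replicate 1.

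Il6, the cytokine of the acute phase response, had FPKM of 0.29, 0.19 and 0.30 in control, 0.34, 0.50 and 0.45 in Complex 1, 0.18, 0.43 and 0.18 in radiation, and 4.96, 1.21 and 1.27 in the combination. The combination stood above the other 9 libraries, which were all at 0.50 or less. Il6 thus passed the filter of 1 FPKM only through the combination, so neither this nor its departure is read as support. Its departure was 2.5 ± 0.89 (unadjusted p = 0.0147; edgeR adjusted p = 0.997), and 1.5 without combination replicate 1, the highest. Lif, a cytokine of the same family, had FPKM of 5.68, 3.39 and 3.67 in control, 4.75, 5.10 and 4.48 in Complex 1, 5.67, 4.35 and 5.54 in radiation, and 13.5, 9.37 and 10.5 in the combination, with a departure of 0.94 ± 0.26. Over the 24 members the median departure was 0.14, and -0.004 without control replicate 1. At an unadjusted p under 0.05, 3 were above, Il6 among them, and 0 below. Of all genes 2.04% were above at that level.

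**Figure D4:**
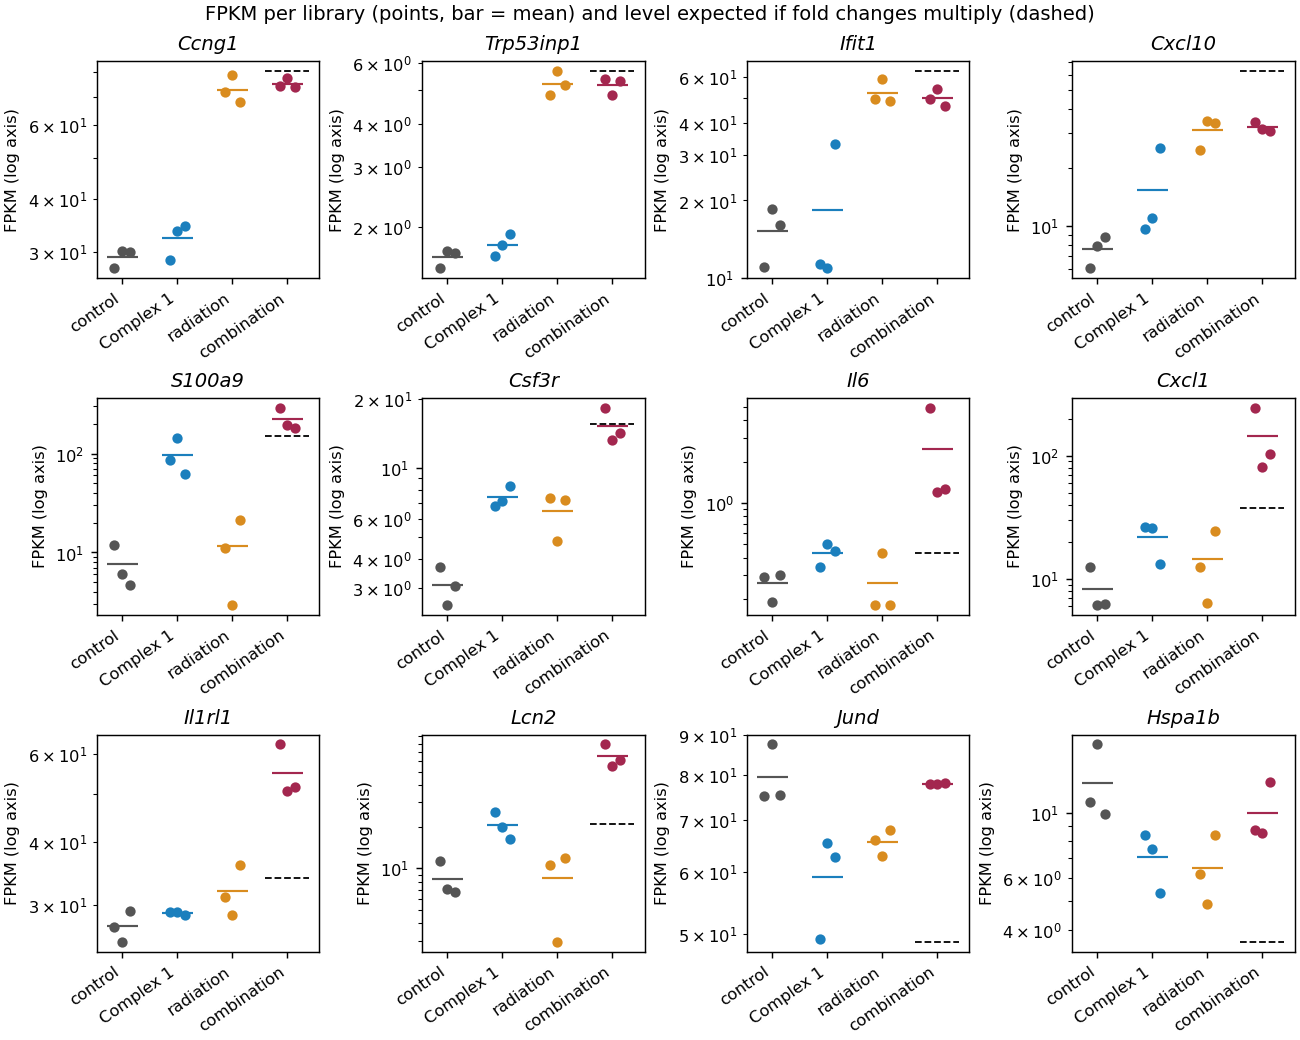
FPKM per library (y axis, log scale) of 12 genes in the 4 groups; points are libraries, solid bars group means, and the dashed bar the level expected if the fold changes multiply. Combination libraries sit around the dashed bar for Csf3r, under it for Cxcl10, and above it for Il6, Cxcl1, Il1rl1, Lcn2, Jund and Hspa1b. Il6 passed the level filter only through the combination.

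The combination can also be set directly against each single treatment, a question added after the values were seen. Genes higher in the combination than in radiation and than in Complex 1, each at an adjusted p under 0.05 in edgeR, numbered 29 (0.212% of tested genes), and 2 were lower than both (0.0146%), Mastl and Tenm3. These choices use the combination libraries. Nothing is therefore read from the departures of the chosen genes, or from how they separate the combination from the single treatments. The 29 included cytokines and chemokines (Il6, Cxcl1, Cxcl5, Csf3, Lif, Osm, Il1a), acute phase and granule proteins (Lcn2, Saa3, Hp, Lrg1, Wfdc21), receptors (Csf3r, Cxcr2, Il1rl1), and regulators of cytokine signalling (Socs3, Nfkbiz, Cebpd). The others were Mxd1, Angptl4, Cyp4f18, Sod2, St3gal1, Dcn, Samsn1, Slc11a2, Noct, Slco4a1 and Rab44. Kappa B matches stood in 5 of the 17 with a promoter entry (29.4%), against 6.29% of tested genes. The other lists searched had 21.4% to 33.3%, so this share was not particular to the group.

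Levels in this group ran from low to high. Socs3, a feedback inhibitor of cytokine receptors, had FPKM of 35.3, 28.9 and 31.4 in control, 38.7, 43.5 and 48.6 in Complex 1, 34.5, 32.0 and 43.5 in radiation, and 91.7, 68.5 and 70.1 in the combination. Lcn2, lipocalin 2, which binds bacterial siderophores, had 11.2, 7.10 and 6.70 in control, 25.8, 19.8 and 16.4 in Complex 1, 10.6, 2.94 and 12 in radiation, and 78.9, 54.6 and 60.9 in the combination. Osm, oncostatin M, had 1.27, 1.11 and 1.12 in control, 2.48, 3.84 and 2.47 in Complex 1, 1.25, 1.72 and 1.94 in radiation, and 8.69, 4.71 and 6.77 in the combination. In each of these 3 genes the combination lay above the other 9 libraries without overlap, which their choice favours for the single treatments.

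Angptl4, an inhibitor of lipoprotein lipase, had FPKM of 8.57, 10 and 10.9 in control, 13.7, 15.9 and 12.9 in Complex 1, 14.4, 12.9 and 16.3 in radiation, and 30.8, 25.2 and 24.2 in the combination. St3gal1, a sialyltransferase, had 10.9, 10.7 and 10.9, then 12.4, 14.4 and 13.9, then 13.6, 12.9 and 13.5, and 18.3, 18.6 and 19.4 in the same order. In both genes the single treatments overlapped each other, stood above control, and lay below the combination. Mastl, the Greatwall kinase of mitotic entry, had FPKM of 12.5, 13.8 and 13.4 in control, 11.7, 12.1 and 12 in Complex 1, 11.1, 13.3 and 10.6 in radiation, and 8.90, 8.79 and 8.18 in the combination.

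Of the 29, 6 remained when any 1 of the 12 libraries was left out: Angptl4, St3gal1, Il1rl1, Csf3r, Socs3 and Osm; of the 2 lower genes 0 remained. The number called was 10 without combination replicate 1, 11 without radiation replicate 1, 14 without Complex 1 replicate 1, 16 without Complex 1 replicate 2 and 17 without radiation replicate 2. The same combination libraries held the highest neutrophil marker levels, at a mean log2 level of 3.14, 2.59 and 2.41 relative to control, against 1.59 to 1.98 in Complex 1 and -0.04 to 0.85 in radiation. Their part in the result was not tested.

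Of the 38 lists, heat shock genes had the largest share of members above the sum at an unadjusted p under 0.05: 10 of 18, with 0 below (2.04% of all genes were above at that level). The list's median was -0.32 under radiation, -0.31 under Complex 1 and -0.27 in the combination, where the sum would be -0.61. Median departure was 0.32, from 0.24 to 0.40 as libraries were left out, with 8 to 11 members at that level. Radiation lowered 4 of the 18 and raised 1, and Complex 1 lowered 3. Over all genes these shares were 13.2%, 13.3% and 0.512%. Summed FPKM of the 18 genes overlapped between all 4 groups, at 2020 to 2230 in control, 2030 to 2080 in Complex 1, 1970 to 2050 in radiation and 1970 to 2250 in the combination.

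By member, departures were 1.47 ± 0.35 for Hspa1b and 0.60 ± 0.14 for Dnajb4. Further members, named after their values were seen, were Dnajb1 (0.64 ± 0.18) and Hsph1 (0.86 ± 0.29), co-chaperones of Hsp70, and Cryab (1.18 ± 0.34), a small heat shock protein. Constitutive members lay near the sum, with -0.08 ± 0.15 for Hspa8 and -0.05 ± 0.10 for Hsp90ab1. The mean level of the list relative to control was -0.03, 0.23 and -0.20 in the control libraries, -0.28, -0.35 and -0.34 in Complex 1, -0.34, -0.43 and -0.35 in radiation and -0.31, -0.34 and -0.08 in the combination. Combination replicates 1 and 2 lay in the range of the single treatments and replicate 3 above it. GAANNTTCNNGAA, a heat shock element, stood in 2 of the 14 promoters with an entry, Hspd1 and Hspe1, against 0.429% of tested genes.

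ER and integrated stress genes were lowered by radiation: 11 of 19 ER chaperones and 14 of 21 ATF4 and CHOP targets (13.2% of all genes were lowered). Of the ER chaperones 17 lay above the sum (47.5% of all genes did), with a median departure of 0.15. Their medians were -0.27 under radiation, -0.13 under Complex 1 and -0.23 in the combination, where the sum would be -0.36. Only 1 of the 19 had an unadjusted p under 0.05, Hspa5 (4.39% of all genes had), but 7 did without control replicate 3. The median departure ran from 0.08 to 0.22 as single libraries were left out. ATF4 and CHOP targets had a median departure of -0.03, with 8 of 21 above the sum (47.5% of all genes were). Hspa5, the ER chaperone BiP, had FPKM of 316, 319 and 238 in control, 235, 238 and 219 in Complex 1, 192, 186 and 202 in radiation, and 210, 194 and 197 in the combination. Radiation and combination overlapped, and the departure was 0.40 ± 0.14 (unadjusted p = 0.014). Ddit3, which encodes CHOP, had 54.9, 51.3 and 38.1 in control, 37.1, 31.1 and 26.5 in Complex 1, 22.4, 26.9 and 25.2 in radiation, and 23.2, 22.4 and 24.8 in the combination, a departure of 0.54 ± 0.20. Trib3, a pseudokinase target of ATF4, was additive within 0.16 ± 0.26.

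Mitochondrially encoded genes lay below the sum. Complex 1 raised 6 of 15 (2.26% of all genes were raised) and radiation called 0. Below the sum lay 13 of 15, against 7172 of all 13668 genes. Of the 13, 7 had an unadjusted p under 0.05 (2.35% of all genes were below at that level). The list held 2 patterns. mt-Nd3, mt-Co3 and mt-Atp6 rose with Complex 1: mt-Co3 had FPKM of 27.0, 26.4 and 26.9 in control, 81.2, 58.8 and 61.4 in Complex 1, 33.4, 48.7 and 25.9 in radiation, and 46.4, 56.1 and 61.8 in the combination, a departure of -0.71 ± 0.27. The more abundant mt-Nd6 and mt-Nd4 had small single changes and were lowest in the combination.

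For mt-Nd6, FPKM were 838, 1198 and 1028 in control, 1159, 1116 and 1144 in Complex 1, 1133, 1361 and 1058 in radiation, and 813, 873 and 970 in the combination. Combination libraries lay below both single treatments, and 2 of them overlapped control. The departure was -0.57 ± 0.17. Median departure of the list was -0.50, from -0.61 to -0.33 as single libraries were left out, and the number at an unadjusted p under 0.05 was 2 without Complex 1 replicate 1. Mitochondrial counts made up 2.16% to 2.74% of a library in Complex 1, 2.14% to 3.13% in radiation, 1.74% to 2.25% in the combination and 2.21% to 2.53% in control; the part of this share in the result was not tested. Nuclear copies of these genes make their counts uncertain.

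Cholesterol genes were lowered by radiation in 18 of 21 cases (13.2% of all genes were lowered), with a median departure of -0.20, or -0.04 without radiation replicate 2. Cytosolic ribosomal protein genes were lowered in 19 of 26, with a median departure of 0.08 and 0 members at an unadjusted p under 0.05. Red blood cell and platelet markers had a median departure of -1.72 over 7 genes. At an unadjusted p under 0.05, 3 globins lay below (2.35% of all genes) and Ppbp, a platelet chemokine, above (2.04% of all genes). These 4 became 1 without any single one of control replicate 1, Complex 1 replicate 2, radiation replicates 2 or 3, or combination replicate 2, and also in limma. The median ran from -2.42 to -1.03 as single libraries were left out, and was -0.68 in limma with a pseudocount of 1, -0.94 over the 8 genes that filterByExpr keeps and -0.16 over 11 genes with no filter. Hba-a1, an alpha globin, had FPKM of 2.49, 5.35 and 1.60 in control, 1.97, 5.45 and 3.08 in Complex 1, 2.13, 6.69 and 6.21 in radiation, and 2.33, 1.18 and 1.24 in the combination. The combination overlapped all 3 other groups, and the near-identical copy Hba-a2 makes these values uncertain.

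The averaged effects give classes that are not chosen on the departure. The 1823 genes raised by radiation had a median log2 change of 0.47 under radiation, 0.14 under Complex 1 and 0.57 in the combination, beside a summed change of 0.62. Their median departure was -0.07, and 34.1% lay above the sum, compared with 47.5% of all genes. At an unadjusted p under 0.05, 43 were above (2.36%, against 2.04% of all genes) and 107 below (5.87%, against 2.35%). Over the same 1823 genes the median departure was 0.02 without Complex 1 replicate 3, the library with the raised interferon genes, and -0.11 to -0.04 without any other single library. The 1802 genes lowered by radiation had a median departure of -0.01, with 47.2% above the sum, and -0.03 to 0.01 over the same genes without 1 library.

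For the 309 genes raised by Complex 1, the median change was 0.70 under Complex 1, 0.36 under radiation and 1.00 in the combination, beside a sum of 1.10. Their median departure was -0.08 with 41.1% above, and over the same 309 genes it was -0.12 to -0.02 without 1 library. The 70 genes lowered by Complex 1 had a median departure of 0.02, and over the same genes 0.01 to 0.05 without 1 library, except -0.01 without radiation replicate 3. Where the classes were instead called again without a library, their genes changed too, and the medians of the 309 and the 70 took either sign.

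The 155 genes raised by both averaged effects are those for which the scale matters. Their median departure on the log2 scale was -0.17, and 27.7% lay above the sum of log2 changes, that is above the product of the fold changes. If additivity is instead taken on the FPKM scale, as the control level plus both single differences, 56.1% lay above. Of the 155, 44 were below on the log2 scale and above on the FPKM scale. Csf3r is such a gene, with a departure of -0.03 on the log2 scale and 4.41 ± 1.84 FPKM (SE) on the linear scale. Over all genes the 2 shares hardly differed, at 47.5% and 47.2%.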

How the data were processed

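RNA of CT26 tumour tissue was sequenced in 12 libraries, 3 per group; the library kit was NEB's Next Ultra RNA kit, per the labels' protocol. The tools were HTSeq 2.0.1, STAR 2.5.3a and DESeq2 on mouse build mm39, per the submitters' processing notes. Their roles, the strand setting and filters are not given in the sources, so genes that overlap or lie antisense to each other cannot be told apart. The authors deposited raw counts per gene and library, and in the same table FPKM, which are used here as levels only.

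A gene was tested where its FPKM reached 1 in 3 or more libraries. Counts were fitted after TMM scaling with a mean per group over all 12 libraries in edgeR 4.0.16 (R 4.3.3), by quasi-likelihood tests with Benjamini-Hochberg adjustment over all 13668 genes at 0.05; edgeR's adjusted p is meant where no tool is named. The departure is the contrast combination - radiation - Complex 1 + control. Library totals were 15601468 to 19112042 counts, and the standard errors cover the spread between libraries. Where a symbol had several identifiers, the one of highest mean FPKM stood for it in the lists. Replicate numbers did not pair the libraries. Scripts were tested on simulated data.

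The members, the 38 gene lists and the fixed genes were chosen with earlier results of these data known. Named genes were those called in the departure, filled up to 10 per direction by smallest p, the 8 of smallest p per direction in each averaged effect, a fixed set, and the 2 members of smallest departure p in each list described; genes beyond both single treatments were added after seeing the data. Predicted genes, pseudogenes and variable segments were not named. Alternatives were RLE scaling, library totals, no filter, filterByExpr, DESeq2 1.42.0, limma 3.58.1 on log2(FPKM + 1) and log2(FPKM + 0.1), robust estimation, a replicate block, and leaving out each library or Complex 1 replicate 3 with radiation replicate 2. Promoters came from RefSeq by symbol, with 9325 of the tested genes matched.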

Additional observations from a re-analysis of the deposited data

How the results depend on the processing

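The number of genes departing from additivity was 0 with all alternatives except DESeq2 (6) and no filter on level (163 of 31727 genes, 151 of them among the 13668 tested). Without the filter the fit estimated an infinite prior for the spread, against 5.07 degrees of freedom with it, and 8951 genes had under 10 counts in all libraries. With a replicate block it was also 0, with 627 at an unadjusted p under 0.05; same-numbered libraries had a mean correlation of deviations of 0.013 (-0.204 to 0.164), so the numbers are not taken as a pairing. Leaving out single libraries gave 0 throughout, with 505 to 845 genes at an unadjusted p under 0.05.

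Genes with an averaged Complex 1 effect numbered 379, 1262 without the filter, 667 in DESeq2 (462 higher, 205 lower), 245 without Complex 1 replicate 3 and radiation replicate 2 together, and 198 to 607 without 1 library (198 without control replicate 2, 607 without Complex 1 replicate 1). Those with a radiation effect numbered 3625, and 2820 to 3804 without 1 library. Genes higher than both single treatments numbered 29, 203 without the filter, 64 in DESeq2, 19 in limma with the smaller pseudocount, and 10 to 33 without 1 library; genes lower than both numbered 2, 71 without the filter, 7 in DESeq2, 0 and 1 in limma with pseudocounts of 1 and 0.1, 5 with the replicate block, 0 without the 2 libraries together, and 0 to 3 without 1 library.

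Classes of genes were called again under each alternative, so their genes changed with it, and with a library missing the averaged effects are not orthogonal to the departure. So called, the median departure of genes raised by radiation (-0.0693) was -0.0434 in limma, 0.0042 without the 2 libraries and -0.1296 to 0.0386 without 1 library; of genes lowered by radiation, -0.0428 to 0.0257; of genes raised by Complex 1, -0.2002 to 0.0409; of genes lowered by Complex 1 (0.0244), 0.0425 under RLE scaling, 0.0115 in DESeq2, -6e-04 in limma, 0.0035 without the 2 libraries and -0.0841 to 0.114 without 1 library. Over the genes of the first calls, an alternative added after seeing the data, the ranges without 1 library were -0.1125 to 0.0179, -0.0334 to 0.0107, -0.1239 to -0.0163 and -0.0059 to 0.0511 in the same order. The cause was not tested. Depth and 3 libraries a group limit genes under 3.91 FPKM most, where the interval of 24.2% stays within 1.5-fold.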
